A study of Sorghum bicolor with 18 samples.

Results

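The genes described here are the basic helix-loop-helix (bHLH) genes of sorghum, taken as the rows of the deposited gene table whose gene title names a helix-loop-helix or bHLH protein. Rows with the symbol MYC2, or PIF and a digit, were left out. The rule found 147 of the 34211 genes; 154 rows carried such a title, and 7 of them were annotated MYC2. The titles are those of the closest Arabidopsis gene, and 129 of the 147 read only as a member of the bHLH DNA-binding superfamily. The 147 genes pointed to 63 different Arabidopsis loci, and 123 of them shared their locus with at least 1 other member, so a name such as ILR3 stands for several sorghum genes. The reference table held no sequence for these identifiers. Genes are named below by the identifier and by the matching Arabidopsis locus or a name of that locus. As 98 of the 147 members had no symbol in the annotation, many of these names, such as bHLH25 and RSL3, were added here from the locus.

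bHLH proteins pair through their helix-loop-helix stretch, and the pair reads E-box DNA through the basic stretch of each partner. Members that lack the basic stretch bind other HLH or bHLH proteins, and some of them keep bHLH proteins off DNA. In Arabidopsis the family acts in jasmonate and brassinosteroid responses, iron balance, stomata, vascular tissue, root hairs and fruit patterning, usually as pairs in which the partner matters as much as the gene itself.

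The study removed the leaf that covers an axillary bud of sorghum (Sorghum bicolor, cultivar 100M) and measured RNA in the bud. Seedlings grown under 16 h days were treated 7 days after sowing, either left intact or stripped of the coleoptile and the lowest leaf so that the bud lay bare, and buds of that leaf axil were collected 1, 3 and 6 h later. Each of the 6 groups (intact and leaf removed at each time) has 3 libraries, each from a pool of 15 buds, chosen by RNA quality from 4 harvested pools. Intact controls were collected at each of the 3 times. The labels do not say whether the pools of a group came from separate plantings, so p-values measure the spread between pools, and loss of the leaf, wounding next to the bud and exposure of the bud cannot be told apart.

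The libraries held 21.4 to 45.8 M reads in exons (median 28.7 M), and bHLH genes took 0.156 to 0.227% of them. Shoot meristem and bud markers were present in every library, with 16 rows summing to 86.9 to 202 CPM (counts scaled to library size). 1 of these rows, a CUC2-annotated gene, had no read. A further row that shares the symbol STM is a serine transhydroxymethyltransferase and is not counted in that sum. Leaf markers summed to 1310 to 6370 CPM. Within groups, 1 component held 48.2% of the variance and set 5 libraries apart (intact 1 h c, intact 6 h d, leaf removed 1 h d, 3 h b and 6 h d), in which the median bHLH gene lay 0.107 to 0.226 log2 units below its group mean. Levels per library are given as CPM scaled with edgeR's TMM factors and belong to 1 gene across libraries. Levels of different genes are compared as RPKM, which also divides by exon length. By mean RPKM, the highest of the 16 bud marker rows were annotated KNAT1 or KNAT6 (up to 19.4). The LAS rows held 0.172 and 0.102 RPKM, and the BRC1 rows 0.014, 0.694 and 3.97. A log2 fold change (with its standard error) is leaf removed against intact at 1 time, and a gene is called when the p-value of edgeR's quasi-likelihood F test, adjusted by Benjamini-Hochberg over 21852 genes, is under 0.05. In bulk buds, fewer cells of a type and less RNA per cell cannot be told apart.

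Of the 147 genes, 105 had enough reads to be tested. The other 42 had at most 74 reads over all 18 libraries (median 6.5), and 9 of them had none. Among those not tested were all 4 members of the anther list, all 4 matches to ZHOUPI, a regulator of Arabidopsis endosperm breakdown, and the 4 matches to MYC3 and MYC4. The tested members were mostly low: their median level was 3.9 RPKM against 6.56 RPKM for all tested genes, and 27 members reached 10 RPKM.

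At 1 h after leaf removal 60 of the 105 tested bHLH genes were called (57.1%, against 48.9% of all tested genes). Of these, 31 were higher (29.5%, against 24.8%) and 29 lower (27.6%, against 24.1%). At 3 h 45 were called (42.9%, against 34%), 30 of them higher (28.6%, against 17.8%) and the other 15 lower (14.3%, against 16.2%). At 6 h 33 were called (31.4%, against 34%), 16 of them higher (15.2%, against 18%) and 17 lower (16.2%, against 15.9%). The shares called higher or lower lay within 5 points of those of all genes except for the higher calls at 3 h. With a limit of at least 2-fold added, 23 members passed upward (21.9%, against 16.1% of all genes) and 19 downward (18.1%, against 10.2%) at 1 h. The same limit left 21 (20%, against 9.29%) and 9 (8.57%, against 5.97%) at 3 h, then 14 (13.3%, against 7.37%) and 11 (10.5%, against 6.31%) at 6 h. The members' share was above that of all genes in each of these 6 counts, and no test of a difference in share was made. All 3 leaf-removed libraries lay above all 3 intact ones for 36 members at 1 h, 34 at 3 h and 21 at 6 h. These are 34.3%, 32.4% and 20% of the tested members, against 28.3%, 23.5% and 23.5% of all genes. They lay below for 26, 17 and 25 members (24.8%, 16.2% and 23.8%), against 26.7%, 23.9% and 22.6% of all genes. The median log2 fold change of members was 0.07 at 1 h, 0.11 at 3 h and −0.11 at 6 h, and the median of all genes −0.01, 0.00 and −0.03.

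Scaling by library totals in place of TMM moved the median of all genes by more than 0.1 at each time, to −0.25, −0.12 and −0.21. Under it the members called split into 28 rises and 35 falls at 1 h, into 24 and 16 at 3 h, then into 14 and 28 at 6 h. All genes shifted with them, to 11.9% higher and 24.1% lower at 6 h. DESeq2 size factors gave 17 rises and 16 falls among the members at 6 h. Without the 5 libraries that stood apart the split was 39 and 33, 38 and 17, and 16 and 24. The share of intron reads at 1 h was 4.63, 7.23 and 4.12% in intact libraries b, c and d and 3.80, 3.12 and 4.65% after leaf removal. The groups overlapped, and intact library c, one of the 5 that stood apart, was the highest. With that share as a covariate, 31 members were higher and 36 lower at 1 h, and 27 were lower at 6 h. For all genes, calls without the 5 libraries or with this covariate were not counted. These counts are thus not read as particular to the members.

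**Figure D1:**
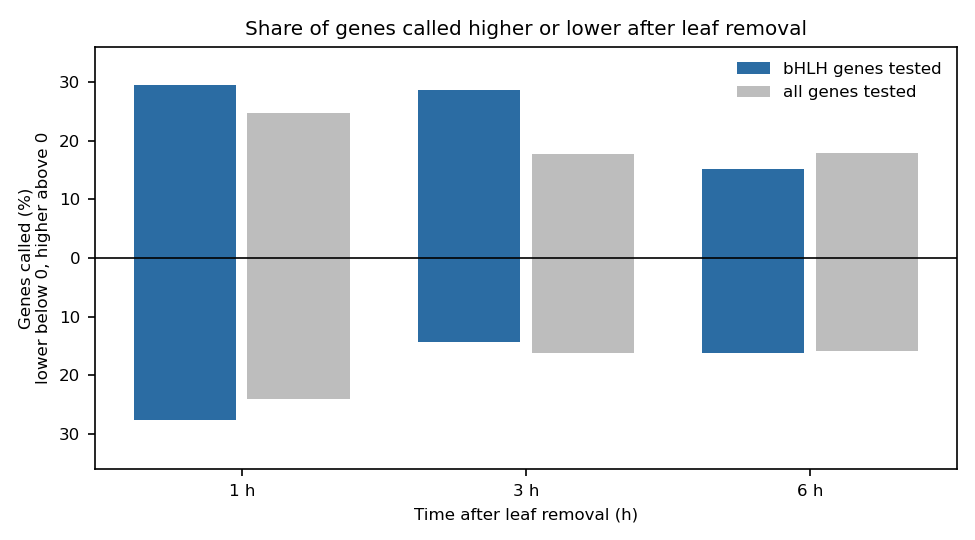
Share of the 105 tested bHLH genes and of all 21852 tested genes (bars, percent) called higher or lower after leaf removal at 1, 3 and 6 h. The bars of the bHLH genes and of all genes lie within 5 points of each other except for the higher calls at 3 h, 28.6% against 17.8%.

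Over the 3 times, 74 of the 105 members were called at least at 1 time (70.5%, against 66.7% of all genes). Of the patterns with a call, the most frequent was a lower level at 1 h with no call later, in 14 members (13.3%, against 9.9%). 10 members were higher at each of the 3 times (9.52%, against 6.69%). Another 8 were higher at 1 and 3 h (7.62%, against 3.96%), 8 at 1 h alone (7.62%, against 10.2%), and 4 were lower at each time (3.81%, against 4.01%). 10 members were called in opposite directions at different times (9.52%, close to the 8.75% of all genes) and are described below. The effect of leaf removal itself differed between 1 and 3 h for 38 members (36.2%, against 26.6% of all genes) and between 1 and 6 h for 40 (38.1%, against 38.1%). Between 3 and 6 h it differed for 3 (2.86%, against 3.25%). In intact buds 8 members differed between the 3 times (7.62%, against 9.72%). With an unadjusted p under 0.05 of the same F test 27 did, and the share of all genes at that limit was not counted.

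Of the 12 tested genes matching Arabidopsis regulators of iron balance, 11 were higher at 1 h and none lower (median log2 fold change 1.11). At 3 h 7 were higher and 1 lower, and at 6 h 4 were higher and 3 lower. These 12 genes match few Arabidopsis loci, with 4 to ILR3, 4 to bHLH25 and 3 to PYE, described below. Of all tested genes, 24.8% were higher and 24.1% lower at 1 h. At 3 h these shares were 17.8% and 16.2%, and at 6 h 18% and 15.9%. The same shares stand beside the counts of the other gene lists below. The other 8 genes of the iron list were not tested, among them the match to bHLH38, the partner of FIT in iron uptake. No member matched FIT itself. At 1 h, 11 to 13 of the 12 or 13 then tested were higher in the fits that left out 1 library, and 10 to 13 of 12 to 19 under the other alternatives, with none lower in either. The rise covered 3 kinds of regulator that the next paragraphs take in turn: the ILR3 group and bHLH121, which switch on iron-deficiency genes in Arabidopsis; PYE, which represses iron storage and transport genes; and the bHLH25 group, which in Arabidopsis takes part in the jasmonate-linked loss of FIT.

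The 4 ILR3 matches are among the most strongly expressed members, 28.6 to 64.4 RPKM, and all 4 rose at 1 h. Sobic.002G329300 stood at 32.1, 21.9 and 35.2 CPM in intact buds and at 109, 108 and 97.1 CPM after leaf removal. The groups lay far apart at 1 h, a 3.52-fold rise (log2 fold change 1.81 ± 0.15, adjusted p = 1.2e-07). At 3 h the values were 46.5, 41.1 and 40.9 CPM intact against 43.6, 52.7 and 52.2, and at 6 h 37.2, 42 and 45.7 against 40.3, 43 and 36.6. The groups overlapped at both later times, and the effect differed between 1 and 6 h (difference in log2 fold change −1.87 ± 0.21, adjusted p = 5.6e-06).

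Sobic.009G160000, another ILR3 match, went from 22.6, 10.5 and 19.2 CPM to 175, 169 and 82.5 at 1 h, with the lowest leaf-removed library, d, one of the 5 that stood apart. The rise was 8.15-fold (3.03 ± 0.34). At 3 h the leaf-removed pools held 29.3, 53.6 and 61.2 CPM against 15.2, 14.1 and 15.8 (1.67 ± 0.33, adjusted p = 9.7e-04), and at 6 h the difference was 0.61 ± 0.32 and not called. Of its reads 75.6% mapped to 1 place only, so part of its value may be shared with a near copy. Sobic.004G012100 (80.8% unique reads) rose from 84.9, 79 and 88 CPM to 151, 171 and 167 at 1 h (0.96 ± 0.08, adjusted p = 2.1e-07), with no overlap. Its smaller rise at 3 h (0.23 ± 0.08, adjusted p = 0.043) lost its call in 8 of the 18 fits that left out 1 library. Sobic.007G033800 rose by 0.52 ± 0.12 at 1 h and 0.58 ± 0.12 at 3 h, and under library totals its 1 h difference was 0.28 (adjusted p = 0.1). The bHLH121 match Sobic.003G221900 rose from 10.4, 14.9 and 11.3 CPM to 17.1, 20.5 and 20.6 at 1 h (0.67 ± 0.14, adjusted p = 0.0012) and differed by −0.02 at both later times.

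All 3 PYE matches rose at 1 h and were lower than in intact buds at 6 h. Sobic.005G177800 held 14.8, 17.9 and 15.1 CPM in intact buds at 1 h and 34.2, 42.5 and 38.6 after leaf removal. At 3 h the values were 27.6, 23 and 23.4 CPM against 20, 18.4 and 20.4, and at 6 h 23.5, 25.9 and 25.9 against 13.7, 13.6 and 16. The leaf-removed libraries thus lay above all intact ones at 1 h and below them at both later times. The differences were 1.27 ± 0.12 (adjusted p = 6.0e-07), −0.33 ± 0.12 (adjusted p = 0.048, with the call lost in 14 of 18 fits that left out 1 library) and −0.80 ± 0.12 (adjusted p = 1.5e-04). Intact buds themselves differed between times for this gene (adjusted p = 0.0039), with the lowest values at 1 h.

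Sobic.001G355600 repeated the pattern at a lower level, with 9.23, 8.73 and 8.78 CPM intact against 14.1, 14.2 and 14.8 at 1 h, and 13.6, 12.5 and 11.5 against 7.88, 7.85 and 6.87 at 6 h (0.69 ± 0.14 and −0.73 ± 0.14). Sobic.002G385300 went from 25.8, 24.6 and 25.6 CPM to 39.7, 44.4 and 51.3 at 1 h, and stood at 25.2, 32.1 and 28.8 against 18.4, 17.1 and 20.6 at 6 h (0.83 ± 0.13 and −0.62 ± 0.13). Neither was called at 3 h (−0.24 and −0.23). The effect at 6 h minus that at 1 h was −2.07, −1.42 and −1.46 for the 3 genes, all called.

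Larger changes came from the 4 tested matches to AT4G37850 (bHLH25), of which 3 were higher at each time and the other at 3 and 6 h. Sobic.001G107400 held 4.84, 5.51 and 6.99 CPM in intact buds at 1 h and 244, 213 and 189 after leaf removal. It then stood at 74.6, 64.1 and 106 CPM at 3 h and 56.3, 39 and 56 at 6 h, against 4.13 to 10.7 in the intact libraries of those times. It was 37.2-fold higher at 1 h (5.22 ± 0.32, adjusted p = 3.4e-09) and 7.09-fold at 6 h (2.83 ± 0.29), a difference of −2.39 on the log2 scale.

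Sobic.008G186100 moved the other way over time. It held 39.3, 46.1 and 25.9 CPM at 1 h, 64.5, 50.1 and 57.5 at 3 h, then 68.1, 50.2 and 43.1 at 6 h, while no intact library exceeded 3.09 CPM. The rise was 13.7-fold at 1 h, 31.8-fold at 3 h and 36.7-fold at 6 h, and the effect at 6 h exceeded that at 1 h by 1.42 on the log2 scale. Its relative Sobic.001G140900 was nearly silent in intact buds, at 0.32, 0.468 and 0.757 CPM at 1 h and 0.11, 0.113 and 0.087 at 3 h. After leaf removal it reached 10.6, 10.4 and 4.13 CPM at 1 h, 20.4, 13.6 and 13.1 at 3 h, then 8.2, 5.51 and 4.15 at 6 h, a 148-fold rise at 3 h (7.21 ± 0.53). Sobic.001G140800, the entry next to it in identifier order, was expressed in intact buds at 13.7 to 32.8 CPM. It was not called at 1 h (0.46 ± 0.20, adjusted p = 0.062), and at 3 h held 46.2, 60.3 and 58.3 CPM against 18.3, 19.8 and 16.8 (1.58 ± 0.20). Both neighbours differed between times in intact buds, highest at 1 h.

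**Figure D2:**
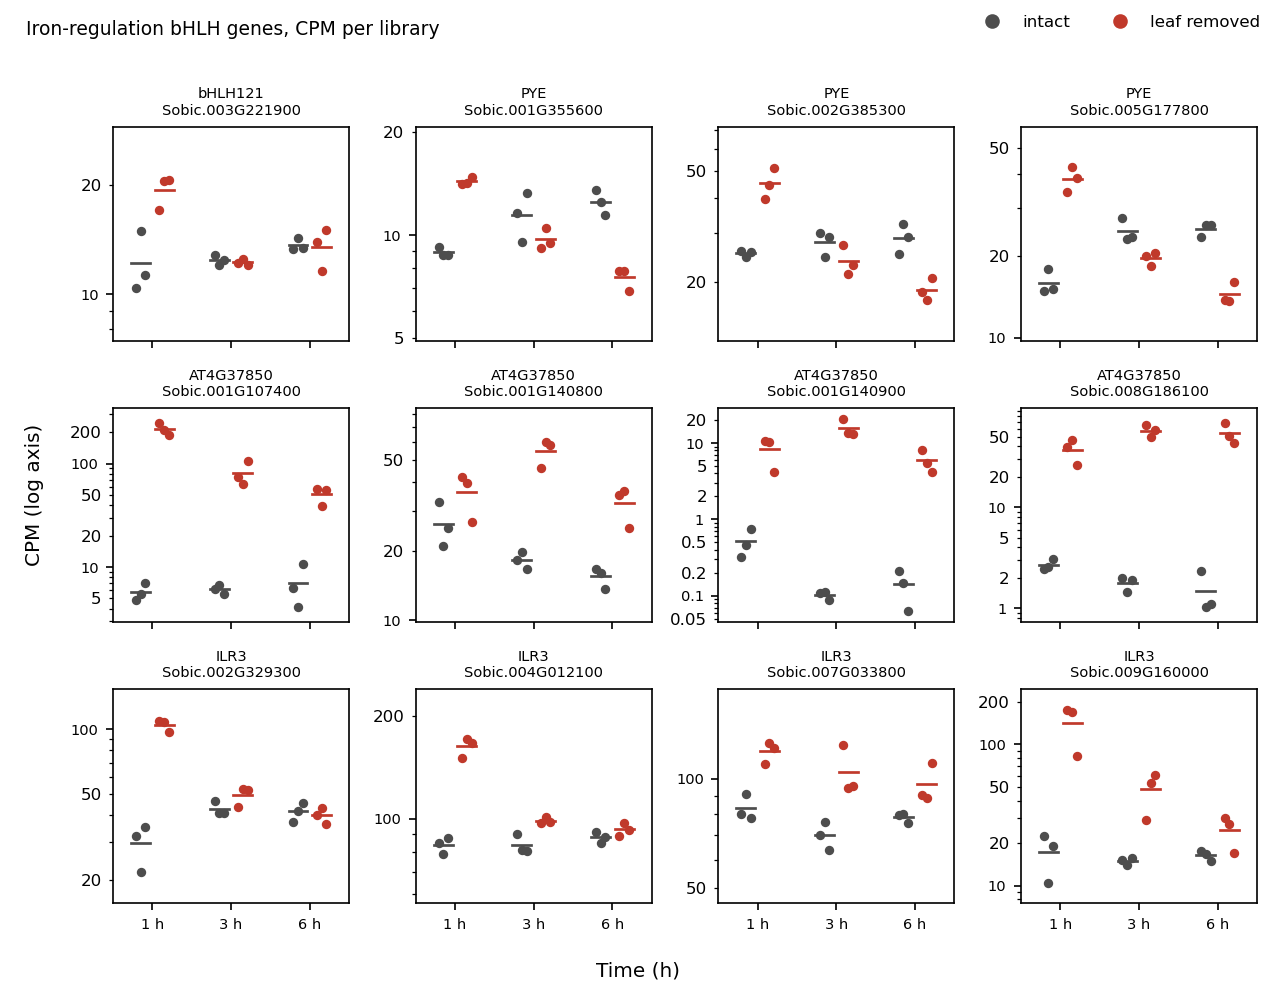
Level in each library (CPM, log axis) of the 12 tested genes matching iron regulators, for intact (grey) and leaf-removed (red) buds at 1, 3 and 6 h, with a bar at each group mean. The 3 PYE matches lie above intact at 1 h and below it at 6 h, while Sobic.001G107400 and Sobic.008G186100 stay above intact throughout.

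Iron handling genes outside the family were counted beside these. Of the 6 tested rows titled as ferritin, nicotianamine synthase, iron transporter or ferric reductase, 1 was higher and 4 lower at 1 h, none was called at 3 h, and 3 were lower at 6 h. Of the 4 lower at 1 h, 2 are annotated TSO2, a ribonucleotide reductase, which holds iron but does not store or carry it; the other 2 match NAS4 (−1.77 ± 0.43) and FRO7 (−1.42 ± 0.31). The ferritin FER4 match Sobic.005G004500, an iron store, differed by 1.87 ± 0.22 at 1 h and −0.86 ± 0.21 at 6 h. Another FER4 match, Sobic.008G004800, was not called at 1 h (−0.02 ± 0.20, adjusted p = 0.96) and was lower at 6 h (−0.71 ± 0.20).

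The jasmonate group held 3 tested genes, all matches to JAM factors, which in Arabidopsis compete with MYC2 and damp the jasmonate response. All 3 were higher at 1 h. Both JAM1 matches (AT2G46510) carry the symbol AIB in the annotation, not JAM1. Of these, Sobic.003G272200 rose from 9.39, 3.61 and 6.6 CPM to 64.4, 39.5 and 30 (6.84-fold, 2.77 ± 0.41, adjusted p = 4.1e-05), with no overlap. At 3 h it held 6.72, 16.5 and 21.1 CPM against 4.84, 6 and 5.25 (1.46 ± 0.40), and without leaf-removed library d this fell to 1.11 (adjusted p = 0.06). At 6 h the difference was 0.08. The JAM3 match Sobic.009G088100 rose from 17.8, 23.7 and 18 CPM to 41.7, 41.6 and 42.1 at 1 h (1.08 ± 0.16, adjusted p = 5.5e-05) and was not called later. The other JAM1 match, Sobic.003G004500, was higher by 0.51 ± 0.16 at 1 h with overlapping libraries, a call lost in 4 of the 18 fits that left out 1 library and under library totals (0.26, adjusted p = 0.14).

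Rows with a MYC2 or PIF symbol, which are not members, and JAZ genes can be set beside these. Of the 7 MYC2-annotated bHLH genes 3 were tested, and all 3 were higher at 1 h, 1 at 3 h and 1 at 6 h (median log2 fold change 1.81, 1.07 and 0.43). JAZ proteins, the repressors that hold MYC factors inactive until jasmonate is sensed, had 15 tested genes, of which 14 rose at 1 h, 15 at 3 h and 14 at 6 h (median 3.38, 4.64 and 4.39). The 7 tested PIF-annotated genes, bHLH factors bound by light-activated phytochrome in Arabidopsis, had 5 higher at 1 h, 1 higher and 1 lower at 3 h, and 2 lower at 6 h.

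The atypical HLH genes without a DNA-binding stretch did not move as a group: of 6 tested, 1 was higher and 3 lower at 1 h, 2 were higher at 3 h and 1 at 6 h. The gene of this list with the clearest turn was Sobic.001G488400, which matches a PRE gene (AT3G28857). PRE proteins promote cell elongation in Arabidopsis by tying up inhibitory HLH proteins. In intact buds it held 23.7, 14.1 and 13.1 CPM at 1 h, 8.46, 13.2 and 9.6 at 3 h, then 13.5, 15.5 and 6.71 at 6 h. After leaf removal it held 2.83, 2.22 and 0.775 CPM at 1 h, 40.6, 54.6 and 53 at 3 h, then 35.5, 39.5 and 30.2 at 6 h. No leaf-removed library overlapped the intact ones of its time, below them at 1 h and above them later. It was 8.77-fold lower at 1 h (−3.13 ± 0.40, adjusted p = 9.0e-06), 4.74-fold higher at 3 h (2.25 ± 0.36, adjusted p = 1.8e-04) and 2.95-fold higher at 6 h (1.56 ± 0.36, adjusted p = 0.0031). The swing from 1 to 3 h, 5.38 ± 0.54 on the log2 scale, was called (adjusted p = 3.8e-06).

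The other tested match to that locus, Sobic.005G178400, had no read in any intact library. It reached 1.49, 1.83 and 0.738 CPM at 1 h, at least 43-fold higher when a floor of 3 reads over the 3 intact libraries is used, and was back to 0, 0.0483 and 0 CPM at 6 h. The 2 matches to KIDARI, a PRE-type protein linked to light responses in Arabidopsis, were lower at 1 h. Sobic.010G091700 went from 1.22, 1.96 and 0.848 CPM to 0.236, 0.145 and 0.185 (−2.79 ± 0.63, adjusted p = 0.0017). Sobic.004G237000 differed by −0.67 ± 0.22 (adjusted p = 0.02), and without intact library b by −0.47 (adjusted p = 0.084). The inhibitors IBH1 (Sobic.006G250500) and AIF4 (Sobic.002G425900), which oppose cell elongation in Arabidopsis, were not called at any time.

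Among 8 tested genes matching the stomatal lineage factors, 1 was higher and 3 lower at 1 h, 2 were higher at 3 h and 1 at 6 h. SPEECHLESS starts the lineage in Arabidopsis, MUTE ends its divisions, FAMA makes guard cells, and ICE1 is their common partner. The SPEECHLESS match Sobic.010G152700 held 15.4, 11.6 and 15.8 CPM in intact buds and 7.51, 6.66 and 8.6 after leaf removal at 1 h. At 3 h it held 11.7, 12.3 and 8.9 CPM against 25.8, 26.7 and 26.3, and at 6 h 8.98, 12.3 and 11 against 12.7, 16.9 and 16.1. The leaf-removed libraries lay below the intact ones at 1 h and above them at 3 and 6 h. The differences were −0.91 ± 0.18 (adjusted p = 4.8e-04), 1.26 ± 0.18 (adjusted p = 4.9e-05) and 0.50 ± 0.17 (adjusted p = 0.036). The 6 h call was lost in 4 of the 18 fits that left out 1 library, under library totals and without the 5 libraries that stood apart.

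The 3 FAMA matches differed from each other. Sobic.004G115000 rose from 1.89, 0.689 and 2.82 CPM to 6.21, 6.61 and 5.61 at 1 h and from 3.48, 4.2 and 4.52 to 7.6, 12.2 and 13.5 at 3 h (1.77 ± 0.38 and 1.44 ± 0.37). Sobic.004G275500 fell at 1 h from 18.8, 8.37 and 13.2 CPM to 4.72, 4.25 and 5.35 (−1.49 ± 0.34, adjusted p = 0.0018) and was not called later. Sobic.009G250000, with 45.2% unique reads, was not called. An ICE1 match, Sobic.005G131900, fell at 1 h from 56.1, 35.5 and 49.9 CPM to 20.2, 24.6 and 22.9 (−1.06 ± 0.18, adjusted p = 1.1e-04), while the other 2 ICE1 matches and MUTE were not called at any time. A list of stomatal markers, 5 of whose 8 genes are these members, summed to 26.5 to 28.6 CPM after leaf removal at 1 h against 23.9 to 45.4 CPM intact, and to 54.1 to 74.5 CPM against 34.3 to 49.4 at 3 h.

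Genes matching vascular factors were lower at 1 h in 4 of 8 tested, with none higher, and 2 were higher and 1 lower at 3 h. In Arabidopsis, TMO5 and its relatives pair with LHW and drive cell divisions in young vascular tissue. The TMO5 match Sobic.007G159300 was a weakly expressed gene, 0.737, 0.468 and 0.454 CPM intact against 0.157, 0.145 and 0.111 at 1 h, and 0.147, 0.188 and 0.406 against 0.808, 1.79 and 1.74 at 3 h. Its libraries did not overlap at either time, lower at first and higher afterwards (−1.98 ± 0.51, adjusted p = 0.0045, and 2.5 ± 0.46, adjusted p = 6.4e-04). Sobic.001G041500, a match to a TMO5-like gene (AT2G41130), was lower at 1 h, with 9.61, 7.05 and 7.3 CPM against 5.27, 3.91 and 4.1 (−0.85 ± 0.27). It was higher at 3 h (0.95 ± 0.26, adjusted p = 0.011), a call lost without leaf-removed library c (0.78, adjusted p = 0.059) or d (0.80, adjusted p = 0.052).

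Of the TMO5-like AT1G68810 matches, Sobic.002G198500 fell at 1 h from 10.3, 5.07 and 7.69 CPM to 3.22, 2.9 and 1.18 (−1.66 ± 0.42, adjusted p = 0.0039). Sobic.001G271100 was lower at 3 h (−0.90 ± 0.28, adjusted p = 0.022, lost in 3 of 18 fits that left out 1 library), and Sobic.001G430000 and Sobic.007G135900 were not called. Sobic.002G230000 (AT3G56770) was lower at 1 h with overlapping libraries, 5.22, 0.661 and 3.3 CPM against 0.432, 0.724 and 0.111 (−2.88 ± 0.81), and moved to −3.56 without leaf-removed library c. The LHW relative EMB1444 (Sobic.002G001500) was not called. Markers of the secondary wall, a feature of maturing vessels, summed to 28.2 to 38.9 CPM in intact buds and 29.6 to 80.3 CPM after leaf removal at 1 h, with overlap. At 3 h they summed to 18.4 to 23.6 CPM intact against 30.6 to 33.6 CPM, with no overlap, and their part in these results was not tested.

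The SAC51 group, which in Arabidopsis adjusts the output of the LHW pairs in response to thermospermine, had 3 tested genes. Sobic.010G145200 (AT1G29950) was the 1 bHLH gene called lower, then higher, then lower, an order seen in 4 of all tested genes. It held 22.2, 16.7 and 17.1 CPM intact against 4.87, 3.96 and 3.76 at 1 h, 11.9, 12.9 and 11.6 against 14, 18 and 18.5 at 3 h, and 12.3, 15.8 and 11.2 against 8.78, 8.72 and 7.97 at 6 h. The 1 h fall was 4.44-fold (−2.15 ± 0.18, adjusted p = 9.8e-08) and held in each fit that left out 1 library. The later calls were weaker: the 3 h difference of 0.47 ± 0.17 (adjusted p = 0.041) lost its call in 10 of those 18 fits, and the 6 h difference of −0.62 ± 0.17 (adjusted p = 0.0095) was −0.45 (adjusted p = 0.074) without intact library c. Sobic.010G172100 was lower at 1 h (−0.94 ± 0.35, lost in 4 of 18 such fits) and 6 h (−1.20 ± 0.35, lost in 2), and Sobic.003G227600 was not called.

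Carpel and phytochrome-related factors had 5 tested genes. The 2 matches to SPATULA, a carpel factor that also restrains leaf growth in Arabidopsis, fell at 1 h. Sobic.004G336700 went from 88.8, 76 and 78.4 CPM to 33, 39.4 and 44.7 (2.08-fold lower; −1.05 ± 0.12, adjusted p = 2.2e-06). It differed by 0.02 at 3 h and lower by −0.33 ± 0.12 at 6 h, a call lost in 13 of 18 fits that left out 1 library. Sobic.010G051800 went from 4.71, 6 and 4.45 CPM to 1.18, 1.54 and 1.55 at 1 h (−1.83 ± 0.23), and was also lower at 3 h (−0.81 ± 0.22; −0.67 and adjusted p = 0.052 without intact library c) and 6 h (−1.14 ± 0.22).

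The match to UNE10, a PIF-like factor, was the member of this list that rose. Sobic.001G300201 held 0.641, 0.551 and 0.666 CPM intact and 10.7, 11.5 and 8.6 at 1 h, a 16.5-fold rise (4.05 ± 0.44, adjusted p = 1.7e-06). It stayed at 2.36, 5.25 and 4.65 CPM at 3 h and 4.21, 3.79 and 3.01 at 6 h (1.93 ± 0.41 and 1.97 ± 0.41; 2.67 at 6 h without intact library c). Sobic.002G224500, matching HECATE1, a partner of SPATULA, differed by 0.01 at 1 h and fell at 3 h from 1.39, 1.73 and 1.91 CPM to 0.291, 0.372 and 0.378 (−2.26 ± 0.42, adjusted p = 6.4e-04). At 6 h it was lower by −1.52 ± 0.41, and by −1.17 (adjusted p = 0.055) without intact library a. Sobic.001G349700, the match to the fruit factor INDEHISCENT, was among the most strongly expressed members at 40.0 RPKM and was not called at any time.

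Of the cell elongation activators, 6 were tested, and 1 was higher at 1 h, 1 higher and 2 lower at 3 h, and 2 lower at 6 h. CIB1 binds the blue-light receptor cryptochrome 2 in Arabidopsis. Its match Sobic.004G267400 (88.7% unique reads) held 7.95, 12.8 and 14.3 CPM intact against 22, 25.6 and 19.6 at 1 h, 12.1, 8.55 and 10.2 against 4.14, 5.14 and 6.12 at 3 h, and 12.7, 8.45 and 10.2 against 3.45, 2.83 and 3.29 at 6 h. It lay above intact buds at 1 h and below them at both later times, with no overlap (0.94 ± 0.22, −1.0 ± 0.23 and −1.71 ± 0.24). The change of the effect from 1 to 6 h was −2.65 ± 0.33 (adjusted p = 1.3e-05).

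4 further genes of that list match AT3G07340. Sobic.005G110490 was lower at 3 and 6 h (−2.58 ± 0.51 and −1.99 ± 0.48), but 19.1% of its reads were unique, and with unique reads the 6 h difference was −2.32 with an adjusted p of 0.052. Sobic.007G197700 was higher at 3 h (0.78 ± 0.26, adjusted p = 0.027, lost in 5 of 18 fits that left out 1 library), and Sobic.003G400600 and Sobic.K023500 were not called. The AT1G10120 match Sobic.001G447800 was not called either.

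**Figure D3:**
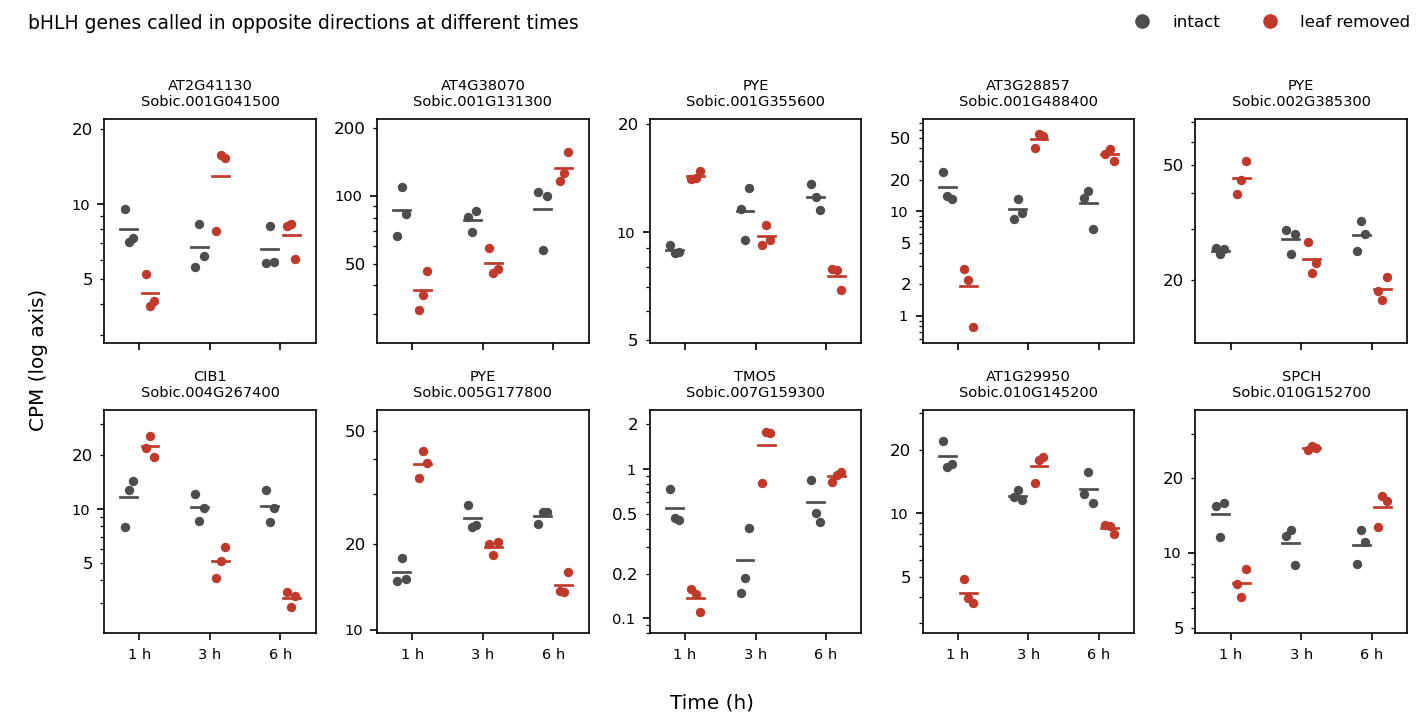
Level in each library (CPM, log axis) of the 10 bHLH genes called in opposite directions at different times (9.52% of those tested, against 8.75% of all genes), for intact (grey) and leaf-removed (red) buds at 1, 3 and 6 h, with a bar at each group mean. The AT3G28857 match Sobic.001G488400 goes from far below intact buds at 1 h to above them at 3 and 6 h, and the CIB1 and PYE matches go the other way.

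Single genes of smaller lists changed late. EGL3 takes part in epidermal patterning and flavonoid synthesis in Arabidopsis, and its tested match was Sobic.006G175500, whose symbols in the table include ATMYC-2. At 1 h it held 0.705, 0.496 and 0.696 CPM intact against 0.472, 0.434 and 0.295 and was not called (−0.66 ± 0.36, adjusted p = 0.14). At 3 h it held 0.22, 0.338 and 0.551 CPM against 4.62, 5.33 and 6.35, and at 6 h 0.298, 0.146 and 0.315 against 4.96, 5.63 and 6.3. The leaf-removed libraries were far above all intact ones at both later times, 14.3-fold at 3 h (3.84 ± 0.35, adjusted p = 7.8e-07) and 21.8-fold at 6 h (4.45 ± 0.37, adjusted p = 5.1e-07). The effect at 6 h exceeded that at 1 h by 5.11 ± 0.51 (adjusted p = 1.7e-06). The other 3 EGL3 matches and the TT8 match had too few reads to be tested.

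Among 5 tested FBH and AKS matches, which in Arabidopsis promote CONSTANS expression or stomatal opening, the AT1G05805 match Sobic.003G391100 had a late fall. It held 26.1, 25 and 29.8 CPM intact against 36.7, 33.5 and 31.8 at 1 h and was not called (0.34 ± 0.20, adjusted p = 0.18). At 3 h it held 31, 29 and 27.3 CPM against 3.56, 5.4 and 7.52, and at 6 h 25.1, 26.7 and 35.5 against 7.41, 6.06 and 8.02. With no overlap at either time, it was 5.31-fold lower at 3 h (−2.41 ± 0.22, adjusted p = 6.5e-07) and 4.08-fold lower at 6 h (−2.03 ± 0.21). Sobic.002G246600 (AT2G42280) rose at 1 h alone, from 6.15, 3.86 and 5.75 CPM to 21.2, 23.2 and 12.3 (1.85 ± 0.32, adjusted p = 1.6e-04). Sobic.004G207200 was higher at 3 h (0.78 ± 0.27, adjusted p = 0.034, lost in 5 of 18 fits that left out 1 library), and Sobic.006G127900 and Sobic.007G211000 were not called.

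All 3 tested root hair genes match RSL3, a factor that starts hair growth in Arabidopsis roots. Sobic.001G079300 had 1 read in the 3 intact libraries at 1 h and 184 reads after leaf removal, 2.91, 3.04 and 1.73 CPM, and was called higher (adjusted p = 1.5e-05). Its call at 6 h rested on levels of 0.108 to 0.286 CPM and was lost in 4 of 18 fits that left out 1 library. Sobic.001G166700 was lower at 1 h (−0.78 ± 0.24; −0.66 and adjusted p = 0.057 without intact library c), and Sobic.002G359200 was not called.

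**Figure D4:**
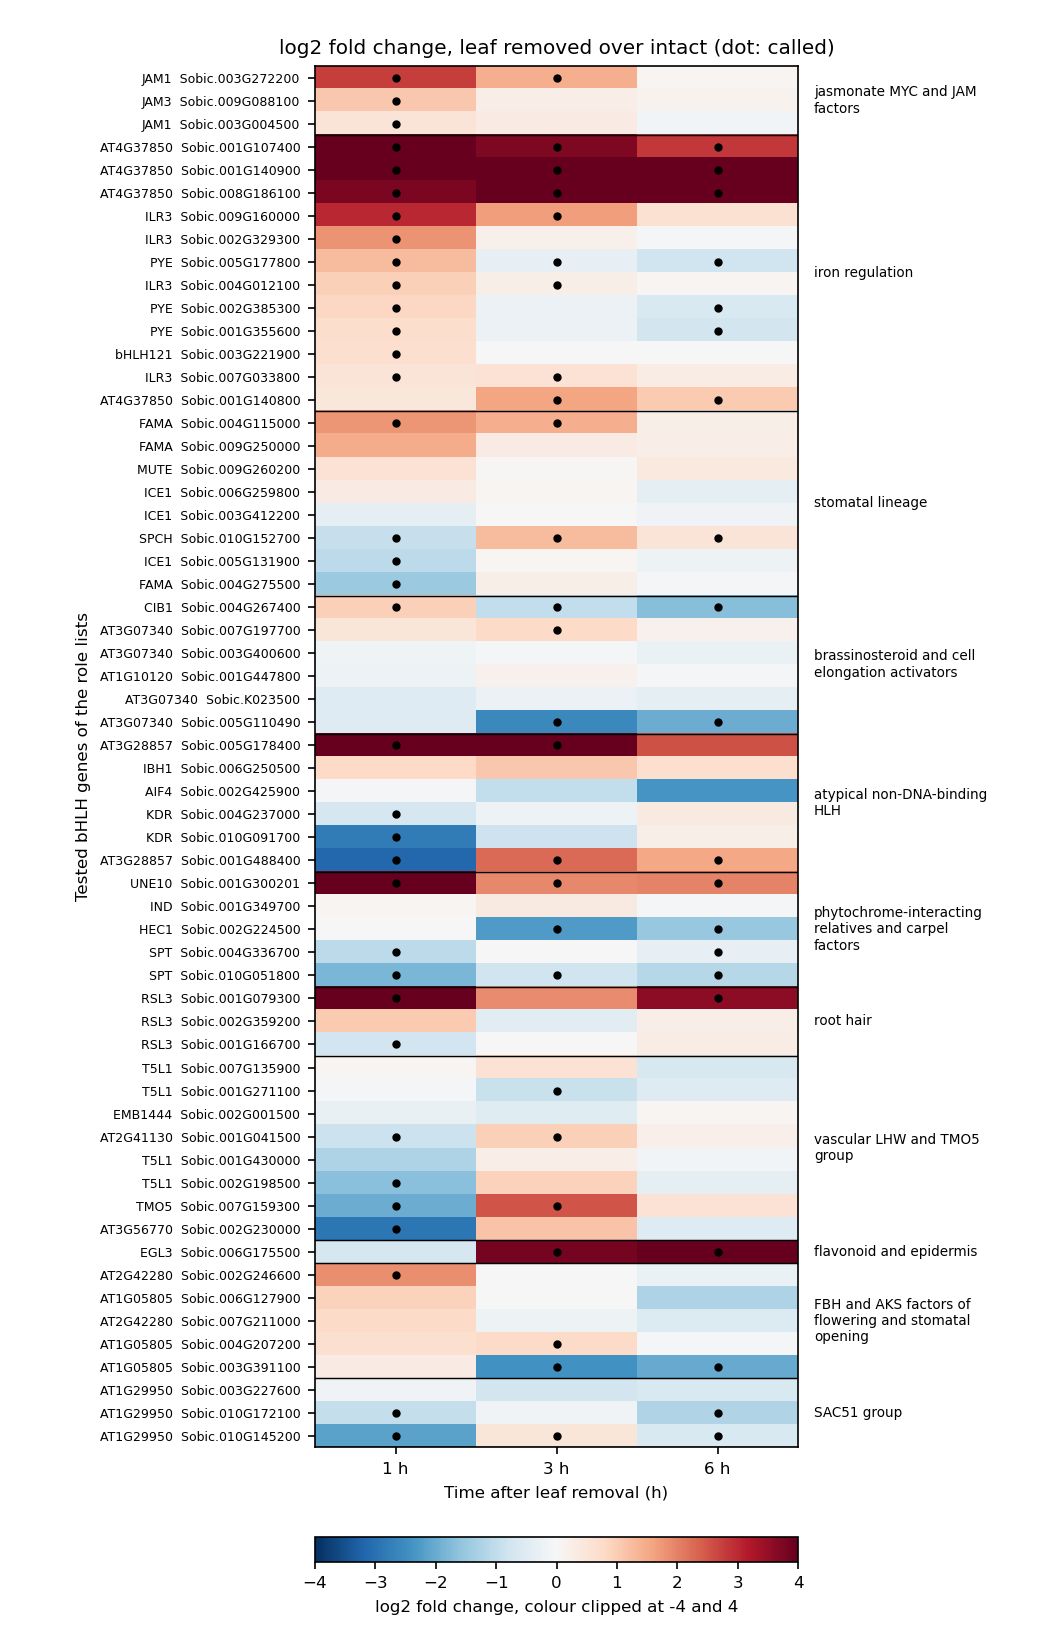
Log2 fold change (leaf removed against intact, colour clipped at −4 and 4) at 1, 3 and 6 h of the tested genes in the role lists, with a dot where the gene was called. The iron list is higher at 1 h in 11 of 12 genes and the vascular list lower in 4 of 8. Of all tested genes, 24.8% were higher and 24.1% lower at that time. Sobic.005G178400 is drawn from a fit in which the intact group had no read.

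Of the 57 members in no role list, 45 were tested, of which 11 rose and 14 fell at 1 h, 11 rose and 8 fell at 3 h, and 7 rose and 6 fell at 6 h. Several large rises were in genes with few reads in intact buds. The first gene below had few there at 3 and 6 h, but 155 to 279 reads per intact library at 1 h. Sobic.007G051800 (AT5G57150) held 8.94, 5.65 and 4.69 CPM intact against 188, 150 and 64.8 at 1 h, a 20.9-fold rise (4.38 ± 0.63, adjusted p = 2.8e-05). At 3 h it held 0.0733, 0.075 and 0.029 CPM against 4.2, 7.49 and 15.2, and at 6 h 0.213, 0.11 and 0.504 against 17.8, 2.61 and 9.59. All leaf-removed libraries exceeded the intact ones of their time, and both groups were highest at 1 h; in intact buds the difference between times was called (adjusted p = 3.2e-04). Its log2 fold changes of 7.2 at 3 h and 5.09 at 6 h moved most without leaf-removed library d at 3 h (6.58), and ranged from 4.36 to 5.98 at 6 h over the fits that left out 1 library, where leaf-removed library a and intact library d moved it by more than 1.5 times.

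The BHLH92 match Sobic.001G095700, whose Arabidopsis counterpart responds to stress, held 0.32, 0.661 and 1.64 CPM intact against 33.5, 31.7 and 15.7 at 1 h (4.94 ± 0.97, adjusted p = 5.4e-04; 5.66 without intact library d). At 3 h the leaf-removed libraries spread from 0.84 to 13.2 CPM, and the difference of 4.51 ± 1.06 was 2.86 without library d. At 6 h the difference of 3.69 ± 1.04 was 2.37 (adjusted p = 0.095) without leaf-removed library a. With limma's voom both later calls were lost (3.82, adjusted p = 0.093, at 3 h and 3.05, adjusted p = 0.15, at 6 h). The 3 h call was also lost with a block by replicate letter within each time (2.88, adjusted p = 0.071). Sobic.009G057000 (AT2G40200) had no read in intact buds at 1 and 3 h and held 0.904, 1.64 and 1.03 CPM, then 3.23, 5.48 and 6.5 CPM after leaf removal, at least 37.9-fold and 139-fold higher with the floor of 3 reads. The same locus has a second match, Sobic.003G061400, which rose at 1 h from 12.6, 11 and 14.5 CPM to 51.5, 57.6 and 41.9 (1.98 ± 0.22, adjusted p = 2.7e-06) and was not called later.

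Sobic.003G102200 (AT4G20970) was higher at each time, most at 3 h, with 5.39, 5.74 and 8.5 CPM against 25.4, 45 and 59.3 (2.72 ± 0.31, adjusted p = 7.1e-06). Another match to that locus, Sobic.004G101000, had no read in intact buds at 1 and 3 h and 66 and 31 reads after leaf removal, at least 28.8-fold and 10.3-fold higher. Sobic.009G073800 (AT5G56960) held at most 0.256 CPM in any intact library and 1.23 to 4.25 CPM in the leaf-removed ones (6.64 ± 0.84, 4.01 ± 0.71 and 4.90 ± 0.75). Over the fits that left out 1 library its 1 h value ranged from 6.04 to 7.40 and its 3 h value from 3.37 to 4.93. Intact libraries c and d at 1 h, and intact a and c and leaf-removed d at 3 h, moved it by more than 1.5 times.

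Falls were also found here. The adjacent entries Sobic.006G197400 and Sobic.006G197500, both AT4G01460 matches, were lower at 1 and 3 h. The former went from 5.1, 2.2 and 4 CPM to 0.0786, 0.434 and 0.775 at 1 h (−3.11 ± 0.55, −4.0 without leaf-removed library d), and the latter from 2.21, 0.661 and 1.57 to 0.275, 0.241 and 0.258 (−2.49 ± 0.56). Their 3 h differences, −1.54 and −1.58, each lost the call in 4 of 18 fits that left out 1 library, and the 6 h call of the latter (−1.67) in 2. Sobic.004G228400 (AT1G72210) was lower at each time, most at 6 h, with 20.5, 27.4 and 11.9 CPM against 5.47, 5.43 and 1.86 (−2.21 ± 0.47, adjusted p = 0.0018). Its earlier calls were lost in 6 and 5 of those fits, and the 6 h call of its relative Sobic.001G476500 (−1.16 ± 0.39) in 4. Sobic.001G416500 (AT1G27660) fell at 3 h by 2.41 on the log2 scale, and by 3.00 without leaf-removed library c.

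Sobic.001G131300 (AT4G38070) turned from low to high. It held 66.5, 110 and 82.9 CPM intact against 31.2, 36.3 and 46.5 at 1 h (−1.19 ± 0.23, adjusted p = 4.4e-04), and 104, 57.5 and 100 against 117, 126 and 157 at 6 h (0.61 ± 0.22, adjusted p = 0.045). The 6 h call was lost in 6 of 18 fits that left out 1 library and under library totals (0.43, adjusted p = 0.18), and the 3 h call (−0.63) in 5. The change of its effect from 1 to 6 h, 1.80 ± 0.32 (adjusted p = 3.7e-04), kept its call in all 18. The BIM1 match Sobic.002G236200, a partner of the brassinosteroid factor BES1 in Arabidopsis, fell at 1 h from 172, 176 and 132 CPM to 108, 113 and 82.7 (−0.66 ± 0.13, adjusted p = 6.8e-04). In intact buds it was higher at 1 h than at 3 h (105, 94.3 and 103 CPM) or 6 h (119, 108 and 97.3 CPM; adjusted p over the times 0.0062).

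The 6 members with the highest mean RPKM included genes with early calls and genes with none. Sobic.002G260600 (AT5G50915) had the highest mean, 65.7 RPKM, and was not called at any time, with differences of 0.27, −0.39 and −0.22. Its relative Sobic.007G189400, at 31.8 RPKM, was lower at 3 h (57.6, 67.8 and 61 CPM against 28.8, 29.5 and 30.5; −1.07 ± 0.23) and at 6 h (−1.06 ± 0.23). 3 of the next 5 by level are the ILR3 matches described above, and the other 2 are the INDEHISCENT and SPATULA matches. Matches to the same locus were called alike at some loci and in opposite directions at others. Among loci with several tested matches, all 4 ILR3, 3 of 4 bHLH25 and all 3 PYE matches rose at 1 h. Both SPATULA and both KIDARI matches fell at 1 h, and FAMA, AT3G28857, RSL3 and BIM1 had matches called in each direction at that time. Other loci also had like calls at 1 h. Both matches to AT2G40200, AT5G57150 and JAM1 and 3 of 4 to AT4G20970 were higher. Both matches to UNE12 and to AT1G27660 were lower. Some of these calls were lost in fits that left out 1 library.

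**Figure D5:**
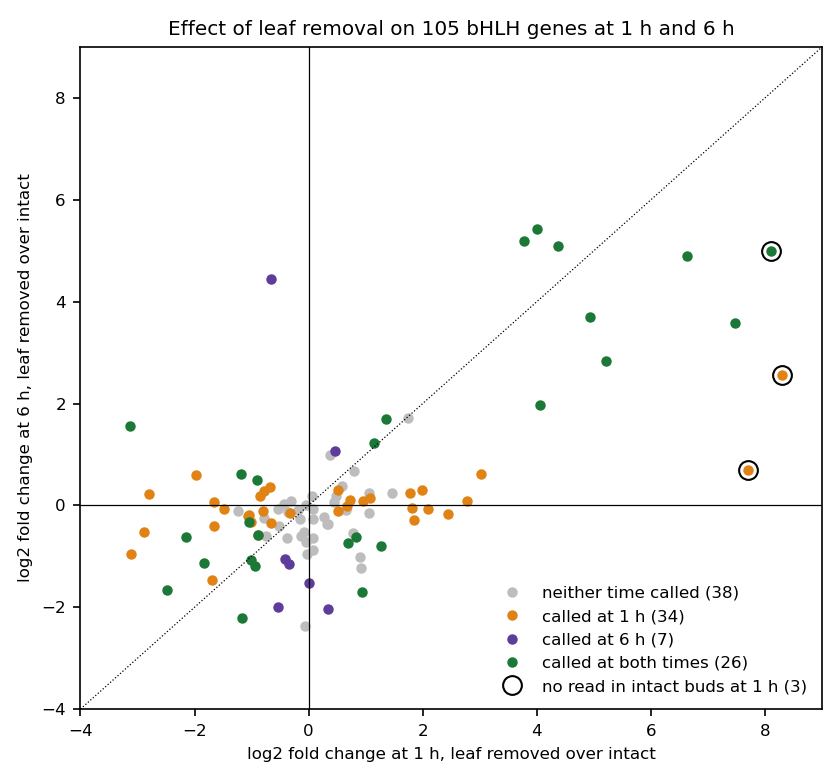
Log2 fold change at 1 h (horizontal axis) against that at 6 h (vertical axis) for the 105 tested bHLH genes, coloured by the times at which they were called, with rings on the 3 genes that had no read in intact buds at 1 h. Of the genes, 34 were called at 1 h only, 7 at 6 h only and 26 at both, 7 of these in opposite directions; the 2 contrasts use separate libraries.

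The sets of called bHLH genes overlapped in part between times. Of the genes called higher, 18 were shared between 1 and 3 h (58.1% of the 1 h set and 60% of the 3 h set), 14 between 3 and 6 h (46.7% and 87.5%) and 11 between 1 and 6 h (35.5% and 68.8%). Of those called lower, 7 were shared between 1 and 3 h (24.1% and 46.7%), 10 between 3 and 6 h (66.7% and 58.8%) and 8 between 1 and 6 h (27.6% and 47.1%). These overlaps were not counted over all genes, so they are not read as particular to the family. The number of members with any read was also higher after leaf removal at 1 h, 120 to 125 per library against 105 to 113 in intact buds. The same held for all genes, with 24572 to 25413 that had a read after leaf removal against 23377 to 24209.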

How the data were processed

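RNA was measured in 18 libraries, 3 pools of 15 buds in each of 6 groups, with 125 bp reads per the labels' protocols; the sources used here do not name an aligner, counter or genome build. The authors deposited 1 table with raw counts (total and unique exon reads, gene and intron reads), RPKM values and exon lengths per gene and library, per the file headers. RPKM as deposited served only to compare levels between genes.

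Total exon read counts were tested in edgeR 4.0.16 (R 4.3.3, limma 3.58.1) with TMM scaling, filterByExpr, 1 quasi-likelihood fit of the 6 groups and Benjamini-Hochberg adjustment over 21852 genes; the threshold was 0.05. Interaction terms tested whether the effect of leaf removal differed between times, and an F test compared intact times. The standard error is the log2 fold change divided by the square root of F. The common biological variation was 24.9%. Counts of 21.4 to 45.8 M exon reads per library limit what low genes can show, and floors of 3 reads cover counting error only. The steps were checked on simulated counts. Alternatives covered DESeq2 1.42.0, other scalings and filters, voom, replicate blocks, unique reads, an intron covariate and left-out libraries.

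The members and all gene lists were chosen with earlier results of these data known. Named were the 8 highest and 8 lowest called members per time with no overlap, 10 or more reads where lower and 2 CPM or more where higher, all tested members of the role lists, the 6 highest by RPKM, and the 4 with the smallest p between 1 and 6 h and over intact times; other genes named were chosen after their values were seen. No pair of libraries within a group looked like duplicates by a chi-square comparison of their counts. Gene identifiers matched 0 entries of the RefSeq table, so no sequence is printed.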

Additional observations from a re-analysis of the deposited data

Results flagged for a closer look

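The difference between times was tested with an interaction term in the edgeR fit, and the effect of leaf removal differed for 38 bHLH genes between 1 and 3 h, 3 between 3 and 6 h and 40 between 1 and 6 h. Of the genes called in opposite directions, the later effect minus the earlier one was as follows on the log2 scale. From 1 to 3 h it was 5.38 for Sobic.001G488400, 4.48 for Sobic.007G159300, 2.62 for Sobic.010G145200, 2.17 for Sobic.010G152700 and 1.8 for Sobic.001G041500, which turned from lower to higher. It was −1.6 for Sobic.005G177800 and −1.94 for Sobic.004G267400, which turned from higher to lower. From 3 to 6 h it was 1.25 for Sobic.001G131300 and −1.09 for Sobic.010G145200. Leaving out 1 library lost the former call in 9 of 18 fits and the latter in 5, and library totals (1.18, adjusted p = 0.079) and the replicate block (1.3, adjusted p = 0.077) lost the former too; with the block within each time both were lost (adjusted p = 0.62 and 0.58). From 1 to 6 h it was 4.69 for Sobic.001G488400, 1.8 for Sobic.001G131300 and 1.41 for Sobic.010G152700, and −2.65, −2.07, −1.46 and −1.42 for Sobic.004G267400, Sobic.005G177800, Sobic.002G385300 and Sobic.001G355600. With the share of intron reads as a covariate, 50, 8 and 47 bHLH genes differed between 1 and 3, 3 and 6, and 1 and 6 h. All genes were not counted in that fit.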

How the results depend on the processing

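Of 110 called differences among named genes, 67 kept their call under every alternative other than the 2-fold limit, and none reversed. Most losses came from the block by replicate letter within each time (40) and from the 2-fold limit itself (30). DESeq2 lost 1, unique reads 1, voom 8 and library totals 8, and 29 were lost in at least 1 fit that left out a library.

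The counts of bHLH genes moved as follows. Except for the 2-fold limit and library totals, all genes were not counted beside them. With a 2-fold limit, 19 were lower at 1 h, 9 at 3 h and 11 at 6 h. At 6 h 28 were lower under library totals and 27 with the intron covariate. Without the 5 libraries that stood apart, 20 differed between 3 and 6 h and 14 between intact times, with the intron covariate 8 and 24, and with DESeq2 7 and 17. Leaving out 1 library gave 8 to 15 lower at 3 h, the fewest without leaf-removed library d (8) and intact library c (9), 1 to 3 that differed between 3 and 6 h, and 5 to 10 between intact times. Same-letter libraries did not deviate together at all times (correlations −0.405 to 0.528 over 7 pairs), and letters were not taken to pair them. The highest value was that of the d pair at 6 h, both among the 5 libraries that stood apart. With the replicate block, 9 bHLH genes were lower at 3 h and 5 differed between intact times. With the block within each time, 14 were higher and 3 lower at 3 h, and 7 were lower at 6 h. Under that block 19, 0 and 17 differed between 1 and 3, 3 and 6, and 1 and 6 h, and 1 between intact times. The cause of these moves was not tested. Depth limits the 42 untested genes and those under about 1 CPM.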
